A study of Drosophila melanogaster with 4 samples.

Results

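The zona pellucida (ZP) domain genes of the fly epidermis were examined in whole Drosophila melanogaster embryos mutant for dsap18, with and without a rescue transgene. The gene dsap18 (current symbol Bin1) is the fly gene for SAP18, a small protein found with histone deacetylase and splicing-associated complexes. The genes were chosen by name, as 9 genes for ZP domain proteins of the apical extracellular matrix (neo, nyo, mey, tyn, dy, dyl, m, pio and qsm), with the requirement that a spot carried a value on at least 1 array of each biological replicate. That requirement was met by 4 of the 9 genes, neo, tyn, dyl and qsm, among 5754 genes that met it in all. The mutant embryos were dsap18 117/Df(3R)sbd45 in a w1118 background. The allele is described as null and was made by mobilising the P element EP(3)3462, and the deficiency uncovers dsap18. The control embryos had the same genotype and additionally a dsap18-HA rescue transgene, so both groups share the deficiency and the mutant chromosome. That transgene is placed on chromosome 2 by the label of 1 array of replicate 1 and on X by those of the other 3 arrays. Embryos of either kind covered the ages of 0 to 24 h. Total RNA came from 2 separate extractions per genotype, and each pair of mutant and control RNA was hybridised to 2 two-colour arrays with the dyes swapped, which gives 4 arrays and n = 2.

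ZP domain proteins are secreted or membrane-anchored proteins that polymerise through their ZP domain. In the fly embryo they line the apical face of epithelia, where they link the plasma membrane to the overlying matrix before and while the cuticle is laid down. Epidermal cells that form denticles place different ZP proteins at different levels of the growing extension, and the transcription factor Shavenbaby, encoded by ovo, switches on many of their genes there. Proteases of the apical surface can release some of these proteins from the membrane, and chitin and chitin-binding proteins are laid down beside them.

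The deposited values are log ratios of the 2 channels of each array, taken as log2. No source states whether they are mutant over control or the reverse. Mutant over control is likely, because the series text calls the mutant RNA the sample, and under the reverse reading every sign below turns. All 4 arrays correlated positively over spots (Pearson r of 0.678 to 0.927, across spots), so the sign of each array was kept as deposited. The arrays held values for 6537 to 7976 of 16416 spots. The spread of ratios over genes was wider in replicate 2 (SD 0.483) than in replicate 1 (SD 0.275). Signal intensities were not used here, and precision is limited by the few arrays. Only spots annotated with 1 symbol were used, and 0 of these were named for Bin1. The level of the targeted gene was therefore not analysed and could not check the labels. In RNA from whole embryos, fewer cells of a type and less RNA per cell cannot be told apart.

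Every value of the measured ZP domain genes was negative. The 14 array values ran from -1.63 to -0.19, and the median of the 4 gene means was -0.54, against 0.02 over all 5754 genes. By replicate it was -0.41 (replicate 1) and -0.66 (replicate 2), where all genes had medians of 0.00 and 0.02. In the fit across all genes (limma, 2 replicate means against 0, Benjamini-Hochberg adjustment, threshold 0.05), 3 of the 4 genes passed with a negative ratio and 0 with a positive one, while of all genes 11.7% passed on the negative side and 11.3% on the positive side. All 4 were negative on every array that had a value, as were 30.5% of all genes. The set was proposed with ratios of these data in view, so these counts and the adjusted p-values below describe the genes and are no independent evidence of a shared direction.

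**Figure D1:**
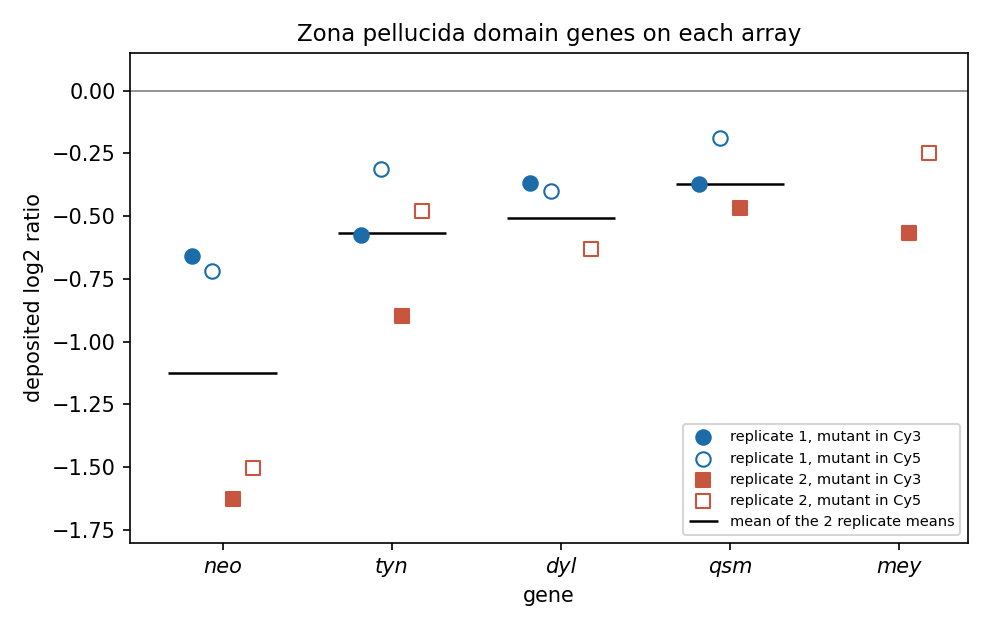
The deposited log2 ratio (vertical axis) of each ZP domain gene with a value (horizontal axis) is plotted for every array, with circles for replicate 1, squares for replicate 2, filled symbols for the mutant in Cy3 and open symbols for the mutant in Cy5. The bar is the mean of the 2 replicate means. All points lie below 0, neo is lowest at -1.63 and -1.50 in replicate 2, and mey has no value in replicate 1.

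The gene neo (neyo, NCBI gene 43523, arm 3R), which encodes a ZP protein of denticle-forming epidermal cells, had the most negative ratios. In replicate 1 its log2 ratio was -0.66 with the mutant in Cy3 and -0.72 with the mutant in Cy5. In replicate 2 the ratios were -1.63 and -1.50. The swapped arrays of a replicate lay close together, and both arrays of replicate 2 were lower than both of replicate 1. The mean was -1.13 ± 0.62 (SD, n = 2), a 2.18-fold lower level in the mutant in the likely direction (limma adjusted p = 3.65e-07). It ranked 17 from the lowest of 5754 genes. On single arrays between 0.382% and 1.59% of genes had a lower ratio than neo. The size depends on the replicate, since the mean was -0.69 in replicate 1 alone and -1.56 in replicate 2 alone.

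The gene tyn (trynity, NCBI gene 3354987, on X), which encodes a ZP protein needed for the epidermal barrier and the respiratory tubes of the larva, was measured on all 4 arrays as well. Its ratios were -0.58 and -0.31 in replicate 1 and -0.90 and -0.48 in replicate 2, with the mutant in Cy3 given first. The replicates overlapped, and in each the array with the mutant in Cy3 was the lower. The mean was -0.57 ± 0.17 (SD, n = 2), a 1.48-fold difference (limma adjusted p = 0.00582). The Cy3 array minus the Cy5 array was -0.26 in replicate 1 and -0.42 in replicate 2, and 4.93% and 3.29% of genes had a more negative difference between swapped arrays. With the Cy3 arrays alone the mean was -0.74 (adjusted p = 0.0019), and with the Cy5 arrays alone it was -0.40 and missed the threshold (adjusted p = 0.0552, limma in both cases). The orientation differences of neo were smaller, at 0.06 and -0.13.

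The gene dyl (dusky-like, NCBI gene 38531, arm 3L) encodes a ZP protein of denticles and of the bristle cuticle. It had 3 named spots, of which 1 carried values. Its ratios were -0.37 with the mutant in Cy3 and -0.40 with the mutant in Cy5 in replicate 1, and -0.63 on the single array of replicate 2 that had a value, with the mutant in Cy5. The replicate 2 value was the lowest, and the replicates did not overlap. The mean was -0.51 ± 0.17 (SD, n = 2; limma adjusted p = 0.0142), a 1.42-fold difference. Because replicate 2 rests on 1 array, a dye effect does not cancel in it.

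The gene qsm (quasimodo, NCBI gene 47065, arm 2R) encodes a membrane-anchored ZP protein known from the light response of the adult clock. Its ratios were -0.37 and -0.19 in replicate 1 with the mutant in Cy3 and in Cy5. The single value of replicate 2, with the mutant in Cy3, was -0.47. The replicates did not overlap, but replicate 2 rests on 1 array, so a dye effect does not cancel in it. In replicate 1 the Cy3 array minus the Cy5 array was -0.18, and 12.2% of genes had a more negative difference. The array of replicate 1 with the mutant in Cy5 was the highest of all member values. The mean of -0.37 ± 0.13 (SD, n = 2) did not pass (limma adjusted p = 0.0762), and the smallest mean ratio that passed among all genes was 0.41 in size. On its arrays between 8.81% and 25.0% of genes had a lower ratio. When the arrays were scaled to one spread, qsm passed with a mean of -0.35 (limma adjusted p = 0.0302).

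The remaining 5 genes did not meet the requirement. The gene mey (morpheyus, NCBI gene 43715, arm 3R), a further ZP gene of denticle cells, was the nearest to it, with ratios of -0.57 and -0.25 on the arrays of replicate 2 with the mutant in Cy3 and in Cy5 and none in replicate 1. Both were negative, and 12.6% and 25.1% of genes had lower ratios on those arrays. On the other side of the requirement, dyl and qsm met it with 1 array in replicate 2. The gene dy (dusky), known with m (miniature) from the flattening and cuticle of wing cells, had 1 spot without a value on any array. No spot used here was named for nyo (nyobe), m or pio (piopio), whose product attaches epithelial cells and tracheal tubes to their apical matrix, and these genes were not analysed.

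Between the measured genes, neo was lower than tyn on all 4 arrays and lower than dyl and qsm on every array they had in common. The ratios of neo in replicate 2 were 2.27 times those in replicate 1, and the corresponding values were 1.55 for tyn, 1.63 for dyl and 1.67 for qsm, beside a spread over all genes that was 1.76 times as wide in replicate 2. The difference between the replicate means was smaller than the mean itself for each of the 4 genes, and it was larger than the mean for 47.4% of all genes. That comparison depends on the size of the mean, and the genes were proposed with these ratios in view. It therefore says little about how reproducible they are beside other genes. In the order neo, tyn, dyl and qsm, the last 3 lay within 0.19 of each other, while their SDs between replicates were 0.13 to 0.17.

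**Figure D2:**
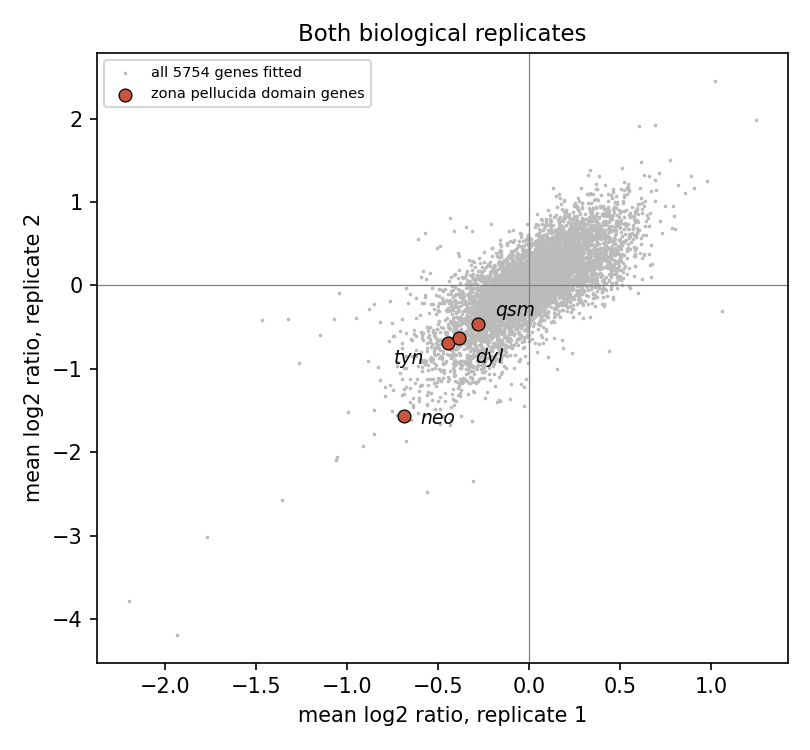
The mean log2 ratio of each of 5754 genes is plotted for replicate 1 (horizontal axis) against replicate 2 (vertical axis), in grey, with the 4 measured ZP domain genes in red. The points of tyn, dyl and qsm lie close together at the lower left of the cloud, and neo lies apart from them at -0.69 and -1.56.

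The 4 measured genes lie on 4 chromosome arms. Among all 9, mey and nyo are next to each other on 3R in the Release 6 gene order, and dy and m both flank CG9360 on X, but none of these had values in both replicates. Few genes flanking the measured ones had values. Beside neo, Atg16, an autophagy gene, had a mean ratio of 0.39 ± 0.10 (SD, n = 2; limma adjusted p = 0.063). Beside dyl, Fdx2, a ferredoxin gene, was at -0.03 ± 0.06 (limma adjusted p = 0.896). Neither of these neighbours had a ratio near that of the ZP gene beside it.

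The 5 genes nearest to neo in Euclidean distance over the log2 ratios of the 4 arrays, among 4320 genes with values on all of them, were Phk-3 (distance 0.143), apolpp (0.184), Cht9 (0.256), RpL27 (0.260) and Tb (0.279). In the same order, their mean ratios were -1.07, -1.13, -1.02, -1.17 and -1.04. The genes nearest to the median of the 4 ZP genes on each array were Oli (0.059), cbt (0.078), Cpr62Bc (0.108), LManII (0.111) and GstT4 (0.130). With 4 arrays, of which 2 repeat the same RNA, likeness of this kind says little beyond a similar mean ratio and replicate difference.

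Few other ZP domain genes could be read. Of 8 listed, 2 had values in both replicates, and 0 passed in the limma fit, with 0 at an unadjusted p under 0.05. CG10005 had ratios of -0.35 and -0.17 in replicate 1 and -0.06 on 1 array of replicate 2 (mean -0.16 ± 0.14, limma adjusted p = 0.496). CG12814 had 0.40 on 1 array of replicate 1 and -0.22 on 1 array of replicate 2, with opposite dyes (mean 0.09 ± 0.44, limma adjusted p = 0.735). For zye the sole value was -0.11, and for CG15020 it was -0.03, each on 1 array of replicate 1. The difference between these genes and the 4 above was not tested.

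The regulators and the actin and pigment genes of denticles and hairs had a median of -0.07. Of 9 listed genes 6 had values in both replicates, and of these 1 passed, with a negative ratio. That count is near the 11.7% of all genes that did. The gene was y (yellow), a cuticle pigmentation gene, with ratios of -0.31 and -0.16 in replicate 1 and -0.93 and -0.60 in replicate 2 (mean -0.50 ± 0.37, limma adjusted p = 0.017). The gene ovo, whose shavenbaby transcripts encode the regulator of denticle genes and whose other transcripts act in the germline, had ratios of 0.13, 0.05, 0.11 and 0.14 (mean 0.11 ± 0.03, limma adjusted p = 0.668), and its spot is not known to tell these transcripts apart. Its values were small and positive on all 4 arrays, where those of neo and tyn were negative. The actin-bundling gene sn (singed) was at 0.23 ± 0.11 (limma adjusted p = 0.3). Among the Sox genes that act upstream of Shavenbaby, D was at -0.34 ± 0.05 (limma adjusted p = 0.112). SoxN was negative with the mutant in Cy3 (-0.20 and -0.37) and positive with it in Cy5 (0.14 and 0.19), with a mean of -0.06 ± 0.04 (limma adjusted p = 0.815). SoxN had the mean ratio smallest in size of this list.

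Genes of chitin and of the matrix next to the ZP proteins had negative ratios where both replicates were measured. Of 14 listed genes 7 had values in both replicates, and all 7 passed with a negative ratio (11.7% of all genes did), with a median of -0.74. The lowest was Tb (Tubby), a cuticle protein gene of the Tweedle family, with ratios of -0.54 and -0.73 in replicate 1 and -1.63 and -1.25 in replicate 2 (mean -1.04 ± 0.57, limma adjusted p = 2.26e-06). The chitin-binding protein gene obst-A was at -0.78 ± 0.32 with 1 array in replicate 2. The gene exp (expansion), needed for chitin deposition in the trachea, was at -0.75 ± 0.34, and Gasp, for a chitin-binding protein of the tracheal lumen, at -0.74 ± 0.22. The smallest in size was that of the chitin deacetylase gene verm at -0.46 ± 0.21 (limma adjusted p = 0.0278). The proteases that act on ZP proteins were barely measured: Np (Notopleural), which cleaves them at the apical surface, had 1 value (-0.24), and the furin gene Fur2 had 1 value (0.54), both in replicate 1. The chitin matrix gene knk (knickkopf) likewise had 1 value there (-0.31).

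Markers of many differentiated tissues were negative beside the ZP genes, and maternal transcripts were positive. Of 6 epithelial genes 3 had values in both replicates, and 2 of them passed with a negative ratio, crb (-0.46 ± 0.29) and ple (-0.48 ± 0.24, 3 arrays), while the E-cadherin gene shg was at -0.28 ± 0.31 (limma adjusted p = 0.21). The list median was -0.46. All 3 measured tracheal markers passed with a negative ratio (median -0.63), and all 3 also belong to the matrix genes above. Of 5 measured muscle genes 4 passed (median -0.71), of 5 hemocyte and fat body genes 4 (median -0.77), of 4 midgut genes all 4 (median -0.78) and of 2 neuronal genes 1 (median -0.28), all with negative ratios. Of 9 maternal genes 6 passed with a positive ratio (median 0.56, from 0.16 for osk to 1.14 for mael). Of 3 early zygotic genes 0 passed in the limma fit, with 0 at an unadjusted p under 0.05 (median 0.05). Among them, Sry-alpha was at -0.50 in replicate 1 and 0.45 in replicate 2, while slam and nullo had positive means in both replicates. The medians of the apical matrix, tracheal, muscle, hemocyte and midgut lists lay below that of the 4 ZP genes. Those of the epithelial and neuronal lists lay above it. These counts stand beside the 11.7% of all genes that passed with a negative ratio and the 11.3% that passed with a positive one. The part of embryo age or tissue make-up in the ratios of the ZP genes was not tested.

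**Figure D3:**
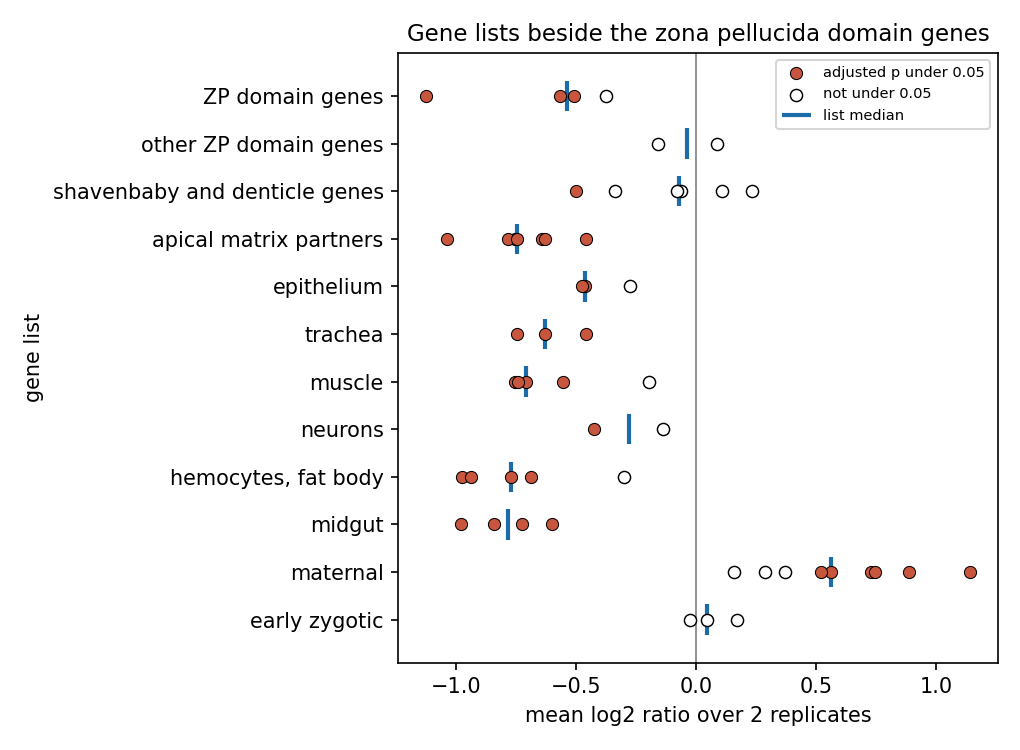
Each point is a gene with values in both replicates, placed by its mean log2 ratio over 2 replicates (horizontal axis) within its list (vertical axis), red where the limma adjusted p was under 0.05 and white otherwise, with a blue line at the list median. The ZP domain genes (median -0.54) share the negative side with the apical matrix, epithelium (median -0.46), trachea, muscle, neuron (median -0.28), hemocyte and midgut lists, the shavenbaby list lies around 0 (median -0.07), and the maternal list lies on the positive side (median 0.56).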

How the data were processed

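The authors deposited a log ratio of the channels per spot and array. It was taken as log2 because limma, listed without a version in the submitters' processing notes, uses that base. How background was corrected, arrays were normalized and spots were left empty is not given in the sources used here. In the platform annotation 13163 of 16416 spots had 1 symbol, 101 several and 3152 none. Current symbols came from the RefSeq gene table of Release 6 (12532 spots by gene ID, 120 by accession), and 511 spots kept the old one. That table gave names, arms and gene order only. Spots of a gene were averaged, then the swapped arrays of a replicate over the values present. A limma fit of the pair of replicate means (limma 3.58.1, R 4.3.3, lmFit and eBayes, two-sided) compared them with 0, with Benjamini-Hochberg adjustment over 5754 genes and a threshold of 0.05.

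Each gene has 1 residual degree of freedom, so nearly all of the variance is pooled over genes (prior SD 0.225, 80.0 prior degrees of freedom). Tested on simulated data, the fit had a share of false calls that averaged somewhat above the threshold and was higher in some draws. Its recovery of ratios as small as those of the ZP genes, or with unequal spread between replicates, was not tested. The genes and lists were chosen with earlier results of these data known. Named are all 9 genes and genes of each pathway list (other ZP domain genes, denticle genes, apical matrix genes). Of each list these are up to 4 that passed per direction, with the ratios largest in size, and the one with the ratio smallest in size. Marker lists are given as counts and medians. Genes named beyond this were chosen after their values were seen. Alternatives left out spots or arrays, changed the centring, the scaling or the variance, or modelled the dye or the replicate.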

Additional observations from a re-analysis of the deposited data

How the results depend on the processing

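In the 11 alternatives tried, each where it gave a value, no mean ratio of neo, tyn, dyl or qsm changed sign. The calls rest on moderated variances: with each gene's own variance, 0 of the 4 genes and 0 of 5754 genes passed, against 3 and 1321 with limma, although 459 genes had an unadjusted p under 0.05. In that setting the mean ratios of neo (-1.13), tyn (-0.57) and dyl (-0.51) kept their values at an adjusted p = 0.557. With the mutant in Cy5 only, tyn missed the threshold at -0.40, and with arrays scaled to one spread qsm passed at -0.35. Values on all 4 arrays, the replicate block and the dye term leave only neo and tyn, whose median was -0.85, against -0.54 for the 4 genes. With the mutant in Cy3 only, the median of the 3 genes left was -0.74. With the replicate block as a random effect (within-replicate correlation 0.635), neo had an adjusted p = 0.008 and tyn one of 0.0311. Over the moderated settings the adjusted p of neo ran from 4.07e-13 to 0.0247. The value of 0.0247 came from the fit with a dye term, which treated swapped arrays of the same RNA as independent. Without replicate 1 or replicate 2 there is no test, and the values were -1.56 and -0.69 for neo, -0.69 and -0.44 for tyn, -0.63 and -0.39 for dyl, -0.47 and -0.28 for qsm and -0.66 and -0.41 for their median. Calls over all genes ran from 932 to 1945 in the moderated settings.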
